A study of Mus musculus with 6 samples.

Results

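The genes described here are 7 oncofetal regulators, namely the mRNA-binding proteins Igf2bp1, Igf2bp2 and Igf2bp3, the let-7 antagonists Lin28a and Lin28b, and the chromatin proteins Hmga1 and Hmga2. They were taken by symbol from a table of 27179 genes, and each symbol had 1 row. They were chosen with the difference between the 2 groups of libraries already known, so their own difference is given as a description and carries no test. Polyadenylated RNA was sequenced from cultured primary smooth muscle cells of the mouse aorta, and the 6 libraries carry the labels WT (wild type, 3 libraries) or Bmal1 KO (3 libraries). The clock gene Bmal1, listed in the table as Arntl, is the partner of CLOCK in the transcription factor that drives the circadian clock. Both groups grew at 37 °C under 10% CO2 in DMEM plus 10% fetal bovine serum. Both groups then spent 7 days in a medium meant to mimic diabetes, with glucose at 4.5 g/L and hydrogen peroxide at 0.3 mM, so no group without that medium enters any comparison. The labels give one batch for all libraries, and they do not state how Bmal1 was inactivated, the age or sex of the animals, or whether replicates came from separate animals or cultures. P-values therefore measure only the spread between these libraries, which may be technical.

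LIN28A and LIN28B bind precursors of the let-7 microRNAs and block their maturation. Mature let-7 in turn represses mRNAs with matching sites in their 3′ untranslated regions (3′ UTRs), and the mRNAs of the LIN28, IGF2BP and HMGA2 proteins are among its best known targets. IGF2BP proteins bind mRNAs in the cytoplasm and protect them from decay, and they are also readers of the mRNA mark N6-methyladenosine (m6A). HMGA proteins bind the minor groove of AT-rich DNA through short motifs called AT-hooks and bend it. Most of these genes are active in the embryo, silent or low in adult tissue and active again in many tumours. Igf2bp2 stays on in many adult tissues.

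The let-7 family was examined as a sequence feature that these genes may share. RefSeq (GRCm38.p6) gave 9 distinct mature 5p sequences from 11 mouse hairpin genes. All 9 shared the seed GAGGUAG at bases 2 to 8. Those printed here, each with its seed in capitals, are those whose precursor genes had most reads in these libraries, with let-7a as the founding sequence.
let-7a-5p: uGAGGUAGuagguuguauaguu
let-7i-5p: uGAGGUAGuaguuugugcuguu
let-7b-5p: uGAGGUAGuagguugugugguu
let-7c-5p: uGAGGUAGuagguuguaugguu
let-7d-5p: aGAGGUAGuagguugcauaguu

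The 3′ UTRs of the main transcripts (GENCODE M21, GRCm38) were searched on the transcript strand for CTACCTC, the complement of the seed. All 7 genes held at least 1 match, against 8.18% of 20856 genes with a 3′ UTR in the annotation. The 7 genes held 17 matches in all, of which 9 were followed directly by an A. Hmga2 had 4 matches in 2977 bases, and 0.0973% of 3′ UTRs within 20% of that length had as many. Igf2bp1 had 4 in 6337 bases and Lin28b had 4 in 4445 bases, as many as 0.416% and 0.267% of 3′ UTRs of like length. Lin28a had 2, as many as 2.04% of 3′ UTRs of like length. Igf2bp2, Igf2bp3 and Hmga1 had 1 each, where 11.6%, 12.8% and 7.94% of 3′ UTRs of like length had at least 1. A match is a description of the letters and shows no binding. Hmga2 and Igf2bp1 carry 4 matches each, of which 1 in Hmga2 and 3 in Igf2bp1 were followed by an A. These 2 genes differed between the groups in opposite directions, and the part of let-7 in this was not tested. The matches of the 2 HMGA genes and of the Igf2bp genes are shown with the 7 matching bases in capitals.
Hmga2 chr10:120364217-120364239 (minus strand): ttcaatttCTACCTCagcatcag
Hmga2 chr10:120362980-120363002 (minus strand): cctcaataCTACCTCtgaatgct
Hmga2 chr10:120362542-120362564 (minus strand): gcaaggaaCTACCTCcacacttc
Hmga2 chr10:120361684-120361706 (minus strand): acacactaCTACCTCttaagtcc
Igf2bp1 chr11:95961771-95961793 (minus strand): gaagtaaaCTACCTCaaggtgtg
Igf2bp1 chr11:95959350-95959372 (minus strand): gctattaaCTACCTCagccccag
Igf2bp1 chr11:95958756-95958778 (minus strand): tggatgaaCTACCTCagtcctca
Igf2bp1 chr11:95958133-95958155 (minus strand): gttttaatCTACCTCttagcaaa
Igf2bp2 chr16:22059466-22059488 (minus strand): aataaaagCTACCTCaggtgttt
Igf2bp3 chr6:49086780-49086802 (minus strand): ttactcaaCTACCTCaggtattc
Hmga1 chr17:27563284-27563306 (plus strand): ttcacaaaCTACCTCtggacggt

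**Figure D1:**
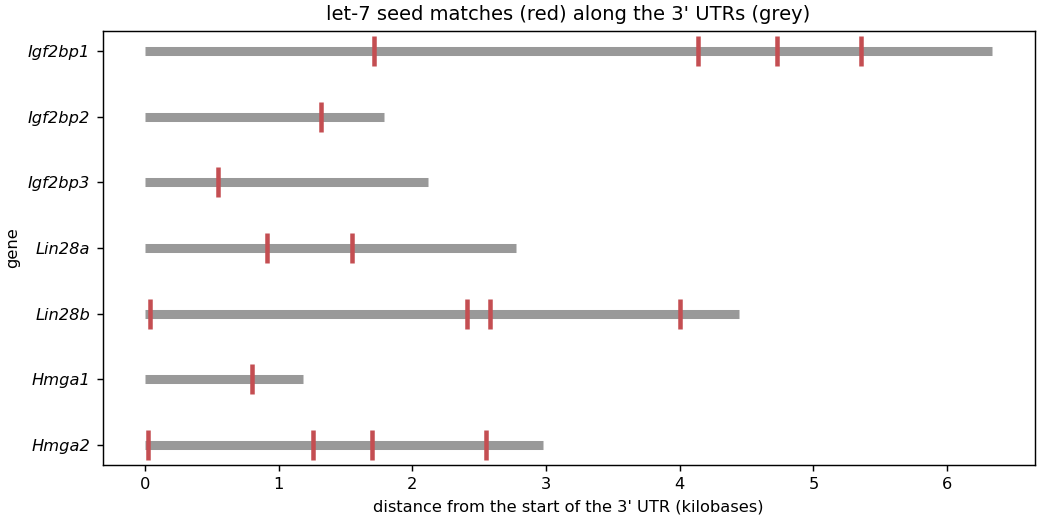
Position of each CTACCTC match (red) along the 3′ UTR (grey) of the 7 genes, as distance in kilobases from the start of the 3′ UTR. Igf2bp1, Lin28b and Hmga2 hold 4 matches each, and the first match of Hmga2 and of Lin28b lies close to the stop codon.

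The libraries held 32503525 to 44657471 reads, with 18650 to 19398 genes detected. Values are normalized read counts, on a scale set by the authors. The labels were checked on Arntl first. Its mean was 579 ± 45.7 (SD, n = 3) in WT and 1005 ± 54.9 (n = 3) in the libraries labelled Bmal1 KO, 1.73-fold higher and not lower in the latter (limma, adjusted p = 0.000135). Whether its reads lie in a deleted part cannot be seen in gene totals, so they do not check the knockout, and the group is called by its label throughout. Sex-linked genes differed as well. Xist, expressed from the inactive X chromosome, was 58.7 ± 40.8 in WT and 3867 ± 23.1 in the libraries labelled Bmal1 KO, and the Y-linked Ddx3y was 3109 ± 285 and 77.1 ± 7.53 (n = 3 each). Sex of the cells and the label cannot be told apart in this design. In this contrast 71.1% of 16086 tested genes passed the threshold (limma, Benjamini-Hochberg adjusted p under 0.05), of which those higher with the Bmal1 KO label were 36.2% of genes and those lower 34.9%.

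Markers of the labelled cell type were present in all libraries, and marker levels moved with the label. The 8 smooth muscle markers summed to between 28599 and 32728 in WT and between 100061 and 108387 in the libraries labelled Bmal1 KO, where each of the 8 was higher. Among 7 fibroblast markers 3 rose and 4 fell, with sums of 41592 to 44212 and 31475 to 34275. Of 7 endothelial markers 6 rose (sums of 332 to 471 and 840 to 1110), and of 6 macrophage markers 5 rose and 1 fell (829 to 1035 and 1809 to 2053). Of 7 mesothelial or epithelial markers 3 rose and 3 fell (3788 to 5028 and 6768 to 10647). The 4 tested of 5 Schwann cell markers rose (164 to 441 and 997 to 1583). Of 5 adipocyte markers only Fabp4 passed the filter on low values, and it rose (sums of 1289 to 1953 and 4728 to 6144), with Lep at 0 in all libraries. Of 7 striated muscle markers 3 were tested and 2 rose (21.6 to 55.0 and 216 to 262), with Myog at 0 in all libraries and Myod1 at 0 in WT. Of 7 germ and pluripotent cell markers, cells that express LIN28, 2 were tested, and 1 rose and 1 fell (87.1 to 157 and 200 to 373). Sox2 had the largest counts of these. Pou5f1 and Zfp42 were at 0 in all libraries, and Dppa3 was at 0 in WT. In bulk RNA, fewer cells of a type and less RNA per cell cannot be told apart. The part of these markers in the results below was not tested.

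Of the 7 genes, 4 were lower in every library labelled Bmal1 KO than in any WT library (Igf2bp1, Igf2bp2, Igf2bp3 and Hmga1), 2 were higher (Hmga2 and Lin28a) and 1 overlapped (Lin28b). Groups did not overlap for 76.7% of all tested genes either, 38.5% higher and 38.2% lower, and since the genes were chosen on this contrast nothing is read from their count. Of the 7, 5 passed the filter on low values (at least 10 in at least 3 libraries), and both Lin28 genes did not.

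**Figure D2:**
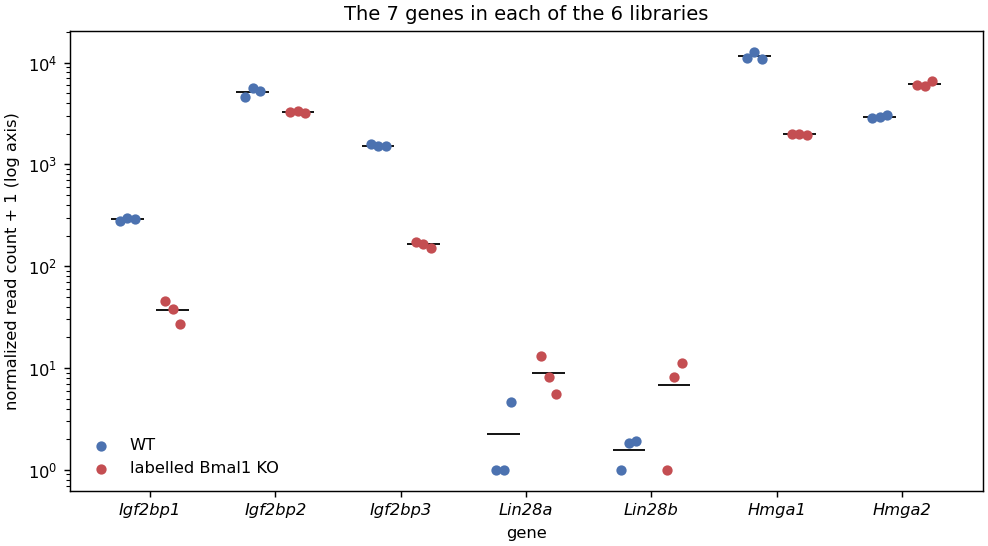
Normalized read count plus 1 (log axis) of the 7 genes in each library, as points for 3 WT (blue) and 3 libraries labelled Bmal1 KO (red), with a line at the group mean. Igf2bp1, Igf2bp2, Igf2bp3 and Hmga1 sit lower in red, Hmga2 sits higher in red, and the Lin28 genes lie near the floor in both groups.

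The embryonic binder Igf2bp1 (Gene ID 140486, chr11:95957163-96005944), first described as a protein that binds the coding part of Myc mRNA, measured 277.9, 295.2 and 287.3 normalized counts in the 3 WT libraries. In the libraries labelled Bmal1 KO it measured 44.8, 37.2 and 26.3. All 3 WT values lie close together, and the highest of the others is far below them. The group means were 287 ± 8.67 and 36.1 ± 9.33 (SD, n = 3 each), 7.95-fold lower in the libraries labelled Bmal1 KO, with a log2 difference of -2.99 (SE 0.219) on the log2(value + 1) scale. The means rest on 971 reads in WT and 98 reads in the other group.

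Igf2bp3 (Gene ID 140488, chr6:49085218-49215469), a binder that reappears in many carcinomas, measured 1574, 1506 and 1510.4 in WT and 173, 165 and 149 in the libraries labelled Bmal1 KO. By fold, its groups lay further apart than those of the other 2 binders. Means were 1530.0 ± 38.0 and 162 ± 12.6 (n = 3 each), 9.42-fold lower, with a log2 difference of -3.23 (SE 0.0951). The RefSeq span of Igf2bp3 overlaps Malsu1 by 53927 bases on the opposite strand. Malsu1, a mitochondrial ribosome assembly factor, was lower as well, at 995 ± 272 and 510 ± 26.3 (n = 3 each; limma, adjusted p = 0.00177). The strand setting used for counting is not given in the sources used here, so reads of the 2 genes may not be fully separated.

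Igf2bp2 (Gene ID 319765, chr16:22059009-22163299), the adult member of the family and a type 2 diabetes risk locus in people, measured 4621, 5638 and 5204 in WT. In the libraries labelled Bmal1 KO it measured 3299, 3364 and 3195. Its groups did not overlap, but the fold between them was small beside those of its paralogs. Means were 5154 ± 511 and 3286 ± 85.3 (n = 3 each), 1.57-fold lower, with a log2 difference of -0.64 (SE 0.0801). The 3 Igf2bp coding sequences are 68.9% to 69.7% identical where aligned and share no stretch of 50 bases.

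To compare levels between genes, values were divided by the length of the main transcript in kilobases. The Igf2bp family summed to 1708 ± 124 normalized counts per kilobase in WT and 884 ± 25.0 in the libraries labelled Bmal1 KO (n = 3 each), 1.93-fold lower. Igf2bp2 made up 77.3% ± 2.10 of the family in WT and 95.3% ± 0.360 in the other group. The share of Igf2bp3 was 20.7% ± 2.02 and 4.22% ± 0.243, and that of Igf2bp1 was 2.01% ± 0.0860 and 0.486% ± 0.117. The family was thus close to Igf2bp2 alone in the libraries labelled Bmal1 KO.

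**Figure D3:**
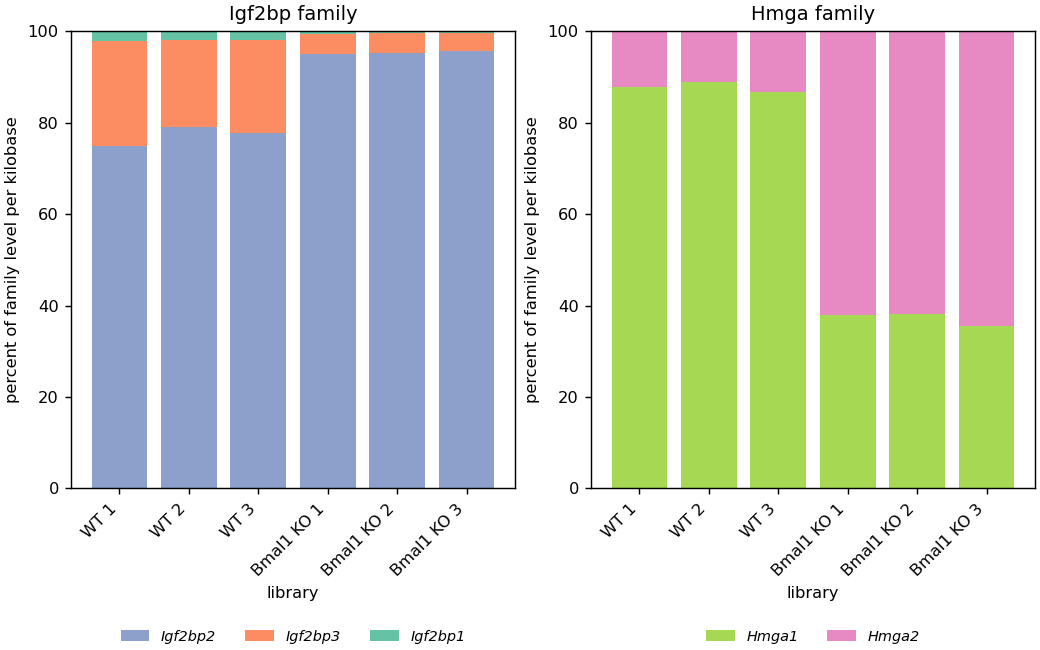
Share in percent of each paralog in its family's summed level per kilobase, as stacked bars for each library (left Igf2bp1, Igf2bp2 and Igf2bp3; right Hmga1 and Hmga2). Igf2bp2 makes up 75.0% to 79.1% in WT libraries and 94.9% to 95.6% in the others, and Hmga2 makes up 11.2% to 13.2% and 61.8% to 64.4%. Hmga1 is taken as counted, without its copy Hmga1b.

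Lin28a (Gene ID 83557, chr4:134003330-134019196) and Lin28b (Gene ID 380669, chr10:45376617-45486314) were barely detected. Lin28a had 0, 0 and 4 reads in WT and 12, 6 and 4 in the libraries labelled Bmal1 KO, 4 reads against 22. Its normalized counts were 0, 0 and 3.68 against 12.2, 7.19 and 4.57, so the lowest library labelled Bmal1 KO is only just above the highest WT library. The read ratio was 6.91 (exact 95% interval 2.35 to 27.6). Lin28b had 0, 1 and 1 reads in WT and 0, 6 and 9 in the other group, a ratio of 9.43 (interval 2.19 to 85.0), and its groups overlapped. Both intervals are taken on reads pooled within each group. They cover counting error only, leave out the spread between libraries, and are no test of the groups.

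HMGA genes showed opposite directions. Hmga1 (Gene ID 15361, chr17:27556574-27563672), an architectural factor abundant in dividing cells, measured 11078, 12649 and 10787 in WT and 1967, 1977 and 1952 in the libraries labelled Bmal1 KO. The 3 libraries labelled Bmal1 KO differed by little, and all lie far below WT. Means were 11505 ± 1002 and 1965 ± 12.5 (n = 3 each), 5.85-fold lower, with a log2 difference of -2.55 (SE 0.0720).

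Hmga2 (Gene ID 15364, chr10:120361268-120476469), the paralog tied to stem cell growth and body size, measured 2846, 2946 and 3054 in WT and 5979, 5937 and 6556 in the libraries labelled Bmal1 KO. Every one of the latter was above every WT library. Means were 2949 ± 104 and 6157 ± 346 (n = 3 each), 2.09-fold higher, with a log2 difference of 1.06 (SE 0.0641). It was the only one of the 5 genes past the filter on low values that was higher in the libraries labelled Bmal1 KO. Its processed copy Hmga2-ps1 was 181 ± 41.0 and 282 ± 83.6.

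Hmga1 has a near-identical single-exon copy, Hmga1b (Gene ID 111241, chr11:120762794-120764392), which is listed as its own gene. The coding sequences, of 324 bases with the stop codon, were identical. Over 1597 aligned bases the transcripts differed at 3 positions of the 3′ UTR (A1061G, A1188G and G1650T, the Hmga1 base first, counted from 1 at the 5′ end of its main transcript). Of all 50-base stretches of that Hmga1 transcript, 69.1% also occur in Hmga1b, with a range of 52.1% to 87.2% over 17 annotated Hmga1 transcripts. How reads that match both were handled is not given in the sources used here, so the split of reads between the 2 genes is uncertain. The first 300 of the shared coding bases are shown, since reads from them cannot be told apart between the genes.
Hmga1 and Hmga1b, first 300 coding bases: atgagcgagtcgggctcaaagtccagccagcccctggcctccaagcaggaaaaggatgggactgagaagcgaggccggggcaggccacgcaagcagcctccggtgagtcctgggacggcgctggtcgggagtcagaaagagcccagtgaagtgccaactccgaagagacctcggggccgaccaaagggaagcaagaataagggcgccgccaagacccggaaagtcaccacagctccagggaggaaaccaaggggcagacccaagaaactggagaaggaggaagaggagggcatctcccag

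Hmga1b measured 5653, 6913 and 6388 in WT and 7819, 7970 and 8281 in the libraries labelled Bmal1 KO, higher in each of the latter. Means were 6318 ± 633 and 8023 ± 236 (n = 3 each), 1.27-fold higher. The ratio of Hmga1 to Hmga1b was thus 1.83 ± 0.136 in WT and 0.245 ± 0.00829 in the other group. The sum of both was 17822 ± 1522 in WT and 9988 ± 227 in the libraries labelled Bmal1 KO, 1.78-fold lower. It is free of how shared reads were split only if each went to either gene and none to both. That rule is not given, so the sum carries this uncertainty too. The fold of Hmga1 alone was 5.85, so the size of the fold moves with the handling of the copy, and the direction of the sum was the same.

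**Figure D4:**
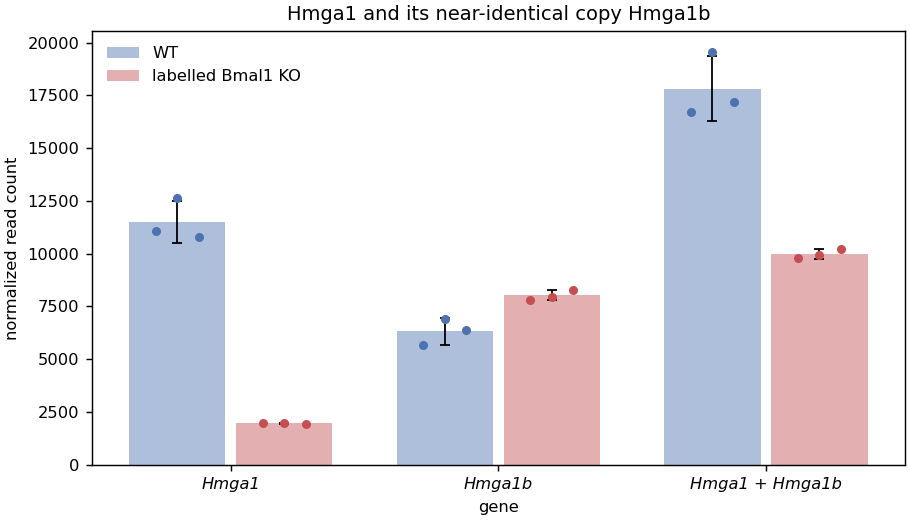
Normalized read count of Hmga1, of its copy Hmga1b and of both summed, with bars at the mean of 3 libraries, error bars of 1 SD and a point for each library (blue WT, red labelled Bmal1 KO). Hmga1 and the sum are lower in red, and Hmga1b is slightly higher in red.

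Per kilobase, the HMGA pair summed to 6544 ± 497 in WT and 2642 ± 87.4 in the libraries labelled Bmal1 KO (n = 3 each), 2.48-fold lower. The level of Hmga1 as counted, relative to Hmga2, was 7.24 ± 0.706 and 0.593 ± 0.0357, so that their order as counted reversed. The share of Hmga2 was 12.2% ± 1.04 and 62.8% ± 1.43. Hmga1 and Hmga2 coding sequences are 62.6% identical where aligned and share no stretch of 50 bases. These sums, shares and ratios use Hmga1 as counted and carry the uncertainty of its copy. In the libraries labelled Bmal1 KO, Hmga1b stood at 4934 ± 145 per kilobase, above Hmga2 at 1660 ± 93.2. Whether the order of Hmga1 and Hmga2 reversed thus depends on how reads were split between the copies.

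In WT, levels per kilobase ran in the order Hmga1 (5749 ± 501), Igf2bp2 (1322 ± 131), Hmga2 (795 ± 28.1), Igf2bp3 (352 ± 8.74), Igf2bp1 (34.2 ± 1.03), Lin28a (0.350) and Lin28b (0.108). Only the 2 Lin28 genes overlapped. In the libraries labelled Bmal1 KO, Hmga2 came first (1660 ± 93.2), then Hmga1 (982 ± 6.23), Igf2bp2 (843 ± 21.9), Igf2bp3 (37.4 ± 2.91), Igf2bp1 (4.31 ± 1.11), Lin28a (2.28) and Lin28b (1.08). There Igf2bp1 overlapped Lin28a, and Lin28a overlapped Lin28b. Both orders and the percentiles of Hmga1 use it as counted. Its copy Hmga1b, left out of the order, stood at 3886 ± 389 in WT and 4934 ± 145 in the libraries labelled Bmal1 KO. The place of Hmga1 beside Hmga2 in the latter thus depends on how reads were split between the copies. Among genes with reads and a known length, Hmga1 stood at percentile 97.8 in WT and 84.2 in the other group, and Hmga2 at 79.6 and 90.8. Igf2bp3 stood at percentile 63.9 and 34.1, Igf2bp1 at 35.0 and 16.9, and Igf2bp2 at 87.6 and 81.9.

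Since the study compares a clock genotype, the promoters of RefSeq (GRCm38.p6, from 250 bases before to 50 after each start) were searched on both strands for the E-box CACGTG, the motif that CLOCK and BMAL1 bind. It occurs in 7.15% of 32851 such windows, and 0.594% hold 2 or more. Of the 6 genes with a promoter entry, Igf2bp3 held 2 and Lin28b held 1, and the others held none in this window. Igf2bp1 had no entry and was not searched. The windows of Igf2bp3, Lin28a and Lin28b lie inside the RefSeq spans of these genes, so the 5′ ends of those spans were not searched. A motif is a description of the letters and shows no binding. Igf2bp3 is shown with both E-boxes in capitals, which begin at positions -23 and 5 with the start site as 0.
Igf2bp3 promoter chr6:49214905-49215204 (minus strand): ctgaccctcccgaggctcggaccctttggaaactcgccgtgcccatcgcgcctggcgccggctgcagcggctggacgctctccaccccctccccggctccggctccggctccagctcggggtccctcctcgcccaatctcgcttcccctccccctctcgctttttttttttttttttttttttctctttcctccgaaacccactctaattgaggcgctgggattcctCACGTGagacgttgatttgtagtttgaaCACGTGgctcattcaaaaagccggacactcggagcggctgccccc

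Hmga1 and Hmga1b promoters differ, while their coding sequences do not. The window of Hmga1 held 4 copies of GGGCGG, the core of the GC box, counting both strands, as many as 5.49% of windows hold, and Hmga1b held none. Hmga1 had 40 CpG dinucleotides, more than 96.1% of windows, and Hmga1b had 8, more than 51.4%. Igf2bp2 had 47, more than 98.6%. GGGCGG, on either strand, is in capitals in the Hmga1 window.
Hmga1 promoter chr17:27556324-27556623 (plus strand): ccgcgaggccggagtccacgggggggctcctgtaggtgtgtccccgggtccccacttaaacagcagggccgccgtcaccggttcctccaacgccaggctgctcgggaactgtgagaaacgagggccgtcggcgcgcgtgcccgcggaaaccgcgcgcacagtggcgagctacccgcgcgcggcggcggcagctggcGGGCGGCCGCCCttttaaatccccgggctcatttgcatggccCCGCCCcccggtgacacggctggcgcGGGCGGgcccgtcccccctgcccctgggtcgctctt
Hmga1b promoter chr11:120762544-120762843 (plus strand): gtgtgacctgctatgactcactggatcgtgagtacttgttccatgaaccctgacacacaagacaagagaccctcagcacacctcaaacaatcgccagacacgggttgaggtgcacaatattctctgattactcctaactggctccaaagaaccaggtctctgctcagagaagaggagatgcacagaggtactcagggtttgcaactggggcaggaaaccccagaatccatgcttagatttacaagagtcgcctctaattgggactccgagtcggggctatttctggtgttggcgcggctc

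The let-7 precursors and hosts are described by their values only, since mRNA libraries do not measure mature microRNAs. Of 14 genes listed, 13 were in the table, and 3 of those had no reads. Mirlet7i measured 54.1, 40.6 and 25.8 in WT and 9.17, 9.59 and 3.43 in the libraries labelled Bmal1 KO. Mirlet7b measured 45.9, 19.1 and 15.7 against 6.11, 4.80 and 3.43. Mirlet7c-2 measured 18.3, 19.1 and 12.9 against 2.04, 3.60 and 2.28. Mirlet7d was also lower in each of the latter, at 8.25, 9.12 and 11.1 against 5.10, 3.60 and 5.71. The other precursor genes were near 0 in both groups, and the host gene Mir99ahg overlapped.

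For the list counts that follow, the background is all tested genes, of which 36.2% were higher and 34.9% lower. The LIN28 and let-7 processing machinery moved in both directions. Of 19 genes 18 were tested, and 8 rose, 7 fell and 3 were not past the threshold. Their median log2 difference was -0.09, against -0.01 over all genes tested, and it ran from -0.16 (total-read scaling) to -0.03 (upper-quartile scaling) over the alternatives. Prkra, which encodes the Dicer partner PACT, fell from 1128 ± 64.8 to 667 ± 28.7 (limma, adjusted p = 8.53e-05). Khsrp, whose protein promotes let-7 processing, fell from 7988 ± 694 to 4131 ± 63.3 (adjusted p = 1.73e-05). Ddx17, a helicase of the Drosha complex, fell from 20296 ± 1910 to 10603 ± 356 (adjusted p = 3.38e-05), and Ago4, an Argonaute protein, rose from 89.6 ± 7.20 to 187 ± 8.04 (adjusted p = 0.000399). Trim71 was not tested.

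Genes widely described as let-7 targets, members left out, moved in both directions, as did all tested genes (36.2% higher and 34.9% lower). Of 23 tested, 5 rose, 10 fell and 8 were not past the threshold (median -0.12). The median was -0.06 without WT replicate 2 and -0.19 without WT replicate 1 or with total-read scaling. Myc, the growth regulator that IGF2BP1 also stabilizes, fell from 10665 ± 512 to 2280 ± 93.9, 4.68-fold (limma, adjusted p = 1.01e-07). Ccnd1, cyclin D1, rose from 15434 ± 559 to 48370 ± 757, 3.13-fold (adjusted p = 5.56e-07), and Irs2, an insulin receptor substrate, rose 3.63-fold (adjusted p = 2.08e-05). Myc and Ccnd1 thus differed in opposite directions, and any link of either to the members was not tested.

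The mRNAs known to be bound by IGF2BP proteins had 8 of 14 genes higher, 4 lower and 2 not past the threshold, with a median of 0.36 and a mean of 0.03, where 36.2% of all tested genes were higher and 34.9% lower. Igf2, the fetal growth factor that gave the family its name, fell from 22167 ± 2520 to 1195 ± 51.7, 18.6-fold (limma, adjusted p = 2.57e-08). Cd44, the hyaluronan receptor, rose 2.57-fold, from 4448 ± 117 to 11421 ± 272 (adjusted p = 5.67e-07). Myc and Ccnd1 are also in this list.

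Among proteins found in particles with IGF2BP, 2 of 8 genes rose, 3 fell and 3 were not past the threshold. The median was 0.005 and the mean -0.20, of opposite sign, and the median was also below 0 with TMM scaling, total-read scaling and edgeR, without WT replicate 2 and without Bmal1 KO replicate 2. Pabpc1, a poly(A)-binding protein, fell 2.82-fold (limma, adjusted p = 5.50e-06) and Matr3, a nuclear matrix protein, fell 1.50-fold (adjusted p = 0.000385). Ybx1, a Y-box protein, rose 1.21-fold (adjusted p = 0.00904). Hnrnpu fell 1.16-fold (adjusted p = 0.0161), but did not pass with upper-quartile scaling (0.0506), without Bmal1 KO replicate 2 (0.0750) or without Bmal1 KO replicate 3 (0.0684).

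Of the m6A machinery, 3 of 17 genes rose, 7 fell and 7 were not past the threshold (median -0.18). The median was -0.10 without Bmal1 KO replicate 2. The writers Mettl14 and Wtap fell 1.62-fold and 1.63-fold (limma, adjusted p = 0.000201 and 7.03e-05). Virma, another subunit of the writer complex, rose 1.78-fold (adjusted p = 4.18e-05), and the eraser Alkbh5 fell 1.36-fold (adjusted p = 0.000787). All 3 Ythdf readers were among those that did not pass.

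Of 11 other high mobility group genes, 2 rose, 5 fell and 4 were not past the threshold (median -0.28, or -0.14 without WT replicate 1). Hmgn2 fell 2.40-fold and Hmgb2 fell 1.89-fold (limma, adjusted p = 0.000245 and 0.000768), both nucleosome- or DNA-binding proteins. Hmgxb3 fell 1.46-fold (adjusted p = 0.000169), and Hmgn3 rose 1.48-fold (adjusted p = 0.00260). Hmgb1 was among those that did not pass. Of 9 genes linked to HMGA proteins, 4 rose, 3 fell and 2 were not past the threshold (median 0.11, or 0.04 with total-read scaling and 0.05 with TMM scaling). Snai1, a repressor of epithelial genes induced by HMGA2, rose 3.05-fold (adjusted p = 8.01e-06). Ccna2, whose promoter HMGA2 activates, rose 2.21-fold (adjusted p = 2.61e-06), and Ccnb2, cyclin B2, rose 1.89-fold (adjusted p = 0.000167). Rb1, whose protein HMGA2 binds, fell 1.67-fold (adjusted p = 8.57e-05).

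Other fetal and oncofetal genes differed in both directions, where 36.2% of all tested genes were higher and 34.9% lower. Of 12 genes 10 were tested, and 3 rose, 5 fell and 2 were not past the threshold (median -0.23). The median was -0.93 with the stricter filter, which tests fewer of them, and -0.13 without WT replicate 3. Dlk1, an imprinted inhibitor of differentiation, fell from 2157 ± 162 to 248 ± 5.91, 8.70-fold (limma, adjusted p = 8.80e-08). H19, the imprinted RNA beside Igf2, fell 4.03-fold (adjusted p = 0.000157). Tpbg, the trophoblast antigen 5T4, rose 2.46-fold (adjusted p = 1.77e-06). Afp and Sall4 did not pass the filter on low values.

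Cell cycle genes were listed because HMGA proteins are tied to growth. Of 14, 8 rose, 2 fell and 4 were not past the threshold (median 0.42), so that 10 of 14 were called, a share near the 71.1% of all tested genes. By direction, 36.2% of all tested genes were higher and 34.9% lower. The 4 genes named here have the smallest adjusted p of the list, and none is among those that fell. Rrm2, a ribonucleotide reductase subunit, rose 7.76-fold (limma, adjusted p = 1.66e-08), Cenpf 3.33-fold, Plk1 2.73-fold and Mki67 2.49-fold. Hmga1, described as abundant in dividing cells, was lower in the same libraries, and Hmga2 was higher. The part of the cell cycle in the differences of the 7 genes was not tested.

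**Figure D5:**
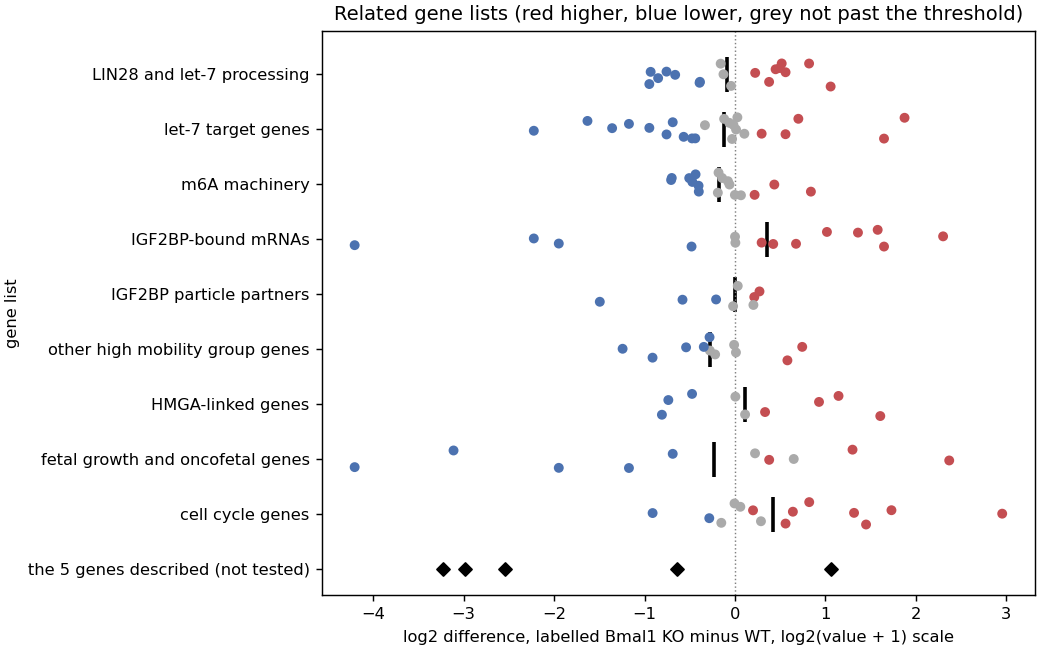
Log2 difference (labelled Bmal1 KO minus WT, log2(value + 1) scale) of each tested gene of 9 related lists, as points in red (higher), blue (lower) or grey (not past the threshold), with a bar at the list median. Black diamonds are the 5 described genes that passed the filter, without a test, and 4 of these lie below 0.

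The genes with the profile most like each member were taken by Pearson's r of log2(value + 1) over the 6 libraries, among 11964 genes. The libraries fall into 2 groups, so r is high for very many genes, and no test is attached. Between 228 and 850 genes had r above 0.99 with a given member. For Igf2bp1 they were Rfc1, Cpne8 and Mdfi, and for Igf2bp2 they were Sh3bp5, Pcyox1 and Tctn1. For Igf2bp3 they were Serpinb6b, Tm7sf3 and Hook2, for Hmga1 they were Trp53, Lonp1 and Rcc2, and for Hmga2 they were Dnaja4, Acsl4 and Ttc9. Values of r ran from 0.9986 to 0.9999.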

How the data were processed

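Polyadenylated RNA of 6 libraries was analysed as gene totals. The input was 1.0 µg of total RNA and the library kit was stranded (Illumina), per the labels' protocols. Per the submitters' processing notes, which give neither version nor role, the tools were HISAT2, Trimmomatic and featureCounts and the build was mm10. The annotation, the strand setting and the rule for multiply mapped reads were not given in the sources used here. The authors deposited 1 table with a non-negative signal per library, which are read counts divided by a library factor. Dividing each column by its smallest step returned whole reads (100% of values within 0.01), and the factors matched median-ratio size factors recomputed from those reads. Such scaling rests on a majority of genes being even between libraries, or on balanced differences.

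Group and replicate came from the sample titles, and 0 columns were left unmapped. No 2 replicates agreed within sampling noise (chi-square per degree of freedom of 10.1 to 71.6). The main test was limma 3.58.1 in R 4.3.3 (eBayes with trend, group only) on log2(value + 1), over genes that reached 10 in 3 or more libraries, with Benjamini-Hochberg adjustment over all 16086 genes and a threshold of 0.05. A log2 difference on this scale understates changes of low genes. Folds are ratios of group means, and intervals on reads are exact at 95% and cover counting error only. The test was checked on simulated data in which far fewer genes differed than were called here. That check therefore does not cover a contrast in which most genes differ. An edgeR 4.0.16 test with TMM on the recovered reads called 11479 genes, and limma called 11435. DESeq2 1.42.0 was an alternative. Other alternatives were pseudocount 5, no filter, a filter of 50, other scalings, the replicate number as a block and each library left out.

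Of the Gene IDs, 25275 (93.0%) matched the RefSeq table of GRCm38.p6, which is the build of mm10, and gave coordinates (whole genes, counted from 1). Lengths, UTRs and coding sequences are of the APPRIS principal transcript, longest first, of GENCODE M21.

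Members, gene lists and searches were chosen with earlier results of these data known. By rule, up to 4 genes with the smallest adjusted p were named in each of 9 lists, and 3 genes for likeness to each member at a mean of 100 or more, predicted-gene names left out. A gene that this rule takes is not reported here. Arntl, Xist and Ddx3y were fixed, and marker lists are given as totals. Hmga1b, Hmga2-ps1, Malsu1, genes named as not passing, and the neighbours in the closing section were named after their values were seen.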

Additional observations from a re-analysis of the deposited data

How the results depend on the processing

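The 5 members past the filter on low values kept their direction under all 15 alternatives (9 other settings and 6 with 1 library left out). Without single libraries, log2 differences ran from -3.16 to -2.78 for Igf2bp1, -0.72 to -0.58 for Igf2bp2, -3.28 to -3.17 for Igf2bp3, -2.59 to -2.48 for Hmga1 and 1.02 to 1.09 for Hmga2. Hmga2 measured 0.99 with total-read scaling. Of 765 alternative values of 51 other named genes, 762 kept direction and side of the threshold, and the exceptions were the 3 of Hnrnpu given with that gene. The count of IGF2BP particle partners that rose, 2, was 1 with no filter, TMM scaling, total-read scaling and edgeR. It was 3 with upper-quartile scaling and DESeq2, and 1 to 3 with 1 library left out (1 without Bmal1 KO replicate 1 or 3). The count of other high mobility group genes that rose, 2, was 1 to 3 with 1 library left out (1 without Bmal1 KO replicate 1 or 3). Of 135 alternative list medians, 41 moved by more than the spread between replicates. All genes called ran from 9770 to 11478 without single libraries. The causes were not tested.

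With the replicate number as a block, 11556 genes were called. The labels do not tie the numbers to shared animals or days, and deviations of same-numbered libraries correlated at -0.00447, 0.0258 and 0.0839, so the numbers were not used as pairs. Of the WT libraries, only replicate 3 correlated best with the library of its own number. Depth limits the Lin28 genes (4 and 2 reads in WT) and the let-7 precursors.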

Other observations

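The nearest tested gene on each side of the 7 genes gave 14 neighbours, of which 4 rose, 6 fell and 4 did not pass the threshold (limma), against 36.2% higher and 34.9% lower among all genes tested. The neighbours of Hmga2 lie far from it. Msrb3, a methionine sulfoxide reductase 304.6 kb away, rose from 2781 ± 258 to 6427 ± 49.8 (adjusted p = 5.69e-06), and Llph, 129.2 kb away, fell from 118 ± 42.0 to 60.7 ± 17.9 (adjusted p = 0.0264). Beside Hmga1, AI413582 lies 0.097 kb away and fell from 1202 ± 150 to 802 ± 96.4 (adjusted p = 0.00327). Both neighbours of Lin28b, Prep and Hace1, did not pass.

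Across 14223 other tested genes with a 3′ UTR, the median log2 difference was 0.01. It was 0.001 for the 12904 genes without CTACCTC, 0.14 for 1159 genes with 1 match, 0.09 for 141 genes with 2 and -0.14 for 19 genes with 3 or more. Over all these genes 37.5% rose and 34.8% fell. The shares were 42.6% and 31.1% with 1 match, 37.6% and 29.1% with 2, and 36.8% and 31.6% with 3 or more. For genes with 1 match the median 3′ UTR was 2123 bases, against 1028 over all, and the part of UTR length was not tested.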
